A study of Mus musculus with 34 samples.

Results

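The replication-dependent histone cluster of mouse chromosome 13 was followed through 4 tables of chromatin immunoprecipitation sequencing (ChIP-seq) counts, made with antibodies to H3K27ac and H3K9me3 in mouse embryonic stem cells. Its members were the regions of the deposited tables whose start lay from 21.7 to 22.05 Mb or from 23.5 to 23.8 Mb of chromosome 13 (GRCm38). The rule used position alone and no measured value, although the spans were proposed with earlier results of these data known. There were 191 such regions of 345324 in all. Of these, 126 of 248336 came from a list that was counted for H3K9me3 throughout and for H3K27ac in repeated libraries of single lines. The other 65, of 96988, belonged to a list of fewer and wider regions used for H3K27ac in separate lines. The spans hold 53 annotated Hist1h genes, 6 of the histone H1 class, 13 of H2A, 14 of H2B, 9 of H3 and 11 of H4. Of these, 52 are protein coding, and Hist1h2aj of the H2A class is annotated as a pseudogene. All 53 had a region within 500 bp of their annotated start in both lists, and neighbouring genes often shared 1 region. In the shared list 36 members lay at a histone gene start, and in the wider list 17 did.

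All libraries came from embryonic stem cells grown in serum with LIF and the inhibitors PD0325901 and CHIR99021, then fixed and cut with micrococcal nuclease. The separate lines were 3 of the inbred strain C57BL/6J (B6; lines 4-1, 4-4 and 5-1) and 3 of DBA/2J (D2; lines 2-9, 5-5 and 203) for each mark, labelled biological replicates. The repeated libraries were technical replicates of 1 line per genotype. They came from B6 line 5-1, D2 line 5-5, line QJ 6-1 (B6.D2-(rs30079041-rs51756099)/Bakr, called B6-13D2 by the study) and line XE 2-4 (D2.B6-(rs29224292-rs13469455)/Bakr, called D2-13B6). In B6-13D2 a D2 piece of chromosome 13 was bred into B6. D2-13B6 is the reciprocal congenic line. The series' design text gives another end marker for D2-13B6 than its labels do. The exchanged piece was taken to lie at 65 to 70 Mb, far from the histone genes, and its ends were not mapped here. H3K27ac was pulled down with an abcam antibody in the separate lines and a Cell Signaling Technology antibody in the repeated libraries, so levels of these series were not compared with each other. H3K9me3 was pulled down with 1 Active Motif antibody throughout.

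Replication-dependent histone genes encode the bulk of the histones that package newly made DNA. They are transcribed mainly in S phase, from short genes, as a rule without introns, whose mRNAs end in a stem-loop instead of a poly(A) tail. The annotation used here nevertheless gives Hist1h2be a long span with introns. Their transcription is organised in a nuclear body, the histone locus body, around the coactivator NPAT. Embryonic stem cells spend much of their cycle in S phase and transcribe these genes strongly. H3K27ac marks active promoters and enhancers, and H3K9me3 marks heterochromatin, in particular at repeats. The mouse cluster also holds many tRNA genes, which RNA polymerase III transcribes. RefSeq annotates 46 tRNA genes in the 2 spans, and 30 members of the shared list held a tRNA gene without lying at a histone gene start. That split was made after the values had been seen.

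Promoter sequences are shown for the genes on which the H3K27ac results turn. RefSeq promoters on GRCm38.p6 could be matched to 49 of the 53 histone genes. In the 250 bases before the start, on either strand, the CCAAT box (CCAAT) occurred in 41 of 49 histone promoters, 83.7%, against 33.8% of all 32851 promoters in the table. It was present in all 6 H1, 12 H2A, 13 H2B and 7 H3 promoters and in 3 of 11 H4 promoters. The TATA box (TATAAA) occurred in 24 of 49, against 12.4% of all promoters. The octamer ATTTGCAT occurred in 4 of 12 H2A and 4 of 13 H2B promoters, against 1.6% of all promoters. The AC box of H1 genes (AAACACA) occurred in 5 of 6 H1 promoters and in 2 of the other histone promoters, against 6.2% of all promoters. None of these motifs contains another, and a match is a description of the letters, not of binding. Divergent H2A and H2B genes can share the searched bases, so the same motif copy may count for both genes of a pair. The first sequence below is the whole gap between the divergent starts of Hist1h2bf and Hist1h2ad, an H2B and H2A pair (chr13:23574208-23574380, plus strand). The gap spans the edge of the member highest in H3K27ac per kb in the separate lines, which holds Hist1h2ad and not Hist1h2bf. The next are the 250 bases before Hist1h1e, at the histone region with the largest strain difference (chr13:23622559-23622808, minus strand), and before Hist1h1c, where no difference was called (chr13:23738557-23738806, plus strand). The last is the middle of a region with H3K27ac in lines of B6 background and almost none in lines of D2 background (chr13:23514015-23514314, plus strand), with no motif search. Capitals mark the 4 motifs on either strand, so ATTGG is a CCAAT box on the other strand.
Hist1h2bf and Hist1h2ad gap: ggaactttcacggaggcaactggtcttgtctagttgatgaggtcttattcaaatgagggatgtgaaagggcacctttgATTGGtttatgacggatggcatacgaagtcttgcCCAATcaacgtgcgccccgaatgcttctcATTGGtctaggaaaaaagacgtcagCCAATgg
Hist1h1e upstream: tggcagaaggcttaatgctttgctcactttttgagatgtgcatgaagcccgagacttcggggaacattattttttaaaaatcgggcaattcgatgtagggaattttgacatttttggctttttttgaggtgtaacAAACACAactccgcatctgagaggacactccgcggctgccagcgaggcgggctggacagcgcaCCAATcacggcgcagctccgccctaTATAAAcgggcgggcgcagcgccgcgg
Hist1h1c upstream: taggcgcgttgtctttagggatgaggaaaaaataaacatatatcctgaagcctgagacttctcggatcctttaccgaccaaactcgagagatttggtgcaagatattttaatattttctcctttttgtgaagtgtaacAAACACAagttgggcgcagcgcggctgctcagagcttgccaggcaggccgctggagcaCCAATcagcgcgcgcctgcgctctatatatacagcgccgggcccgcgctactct
Region low in D2: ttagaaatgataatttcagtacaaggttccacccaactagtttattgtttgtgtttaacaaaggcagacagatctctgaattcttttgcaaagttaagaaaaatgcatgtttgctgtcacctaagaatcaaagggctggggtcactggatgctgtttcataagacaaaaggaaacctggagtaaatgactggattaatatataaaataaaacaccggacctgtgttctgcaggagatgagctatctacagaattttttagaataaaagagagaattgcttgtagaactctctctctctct

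Counts in regions totalled 15444270 to 18272793 per H3K27ac library of the separate lines and 8735674 to 11543469 per repeated one. For H3K9me3 the totals were 1487862 to 2559262 and 1538145 to 2185977, so differences in that mark were measured with less precision. Promoters of embryonic stem cell genes carried much H3K27ac, with a median level of 6.37 CPM per kb of region (CPM is a region's count per 1e+06 counts of its library, after TMM scaling) in the separate lines, while 10 of 18 lineage genes and 4 of 12 fibroblast genes had a region there, at medians of 3.07 and 2.84. Within each genotype of the H3K27ac repeated libraries, a pair of libraries had differences smaller than sampling noise and was counted as 1 sample, so n = 2 in the tests. One D2-13B6 library, replicate 1, was unlike the other two. For H3K27ac it gave a chi-square of 2.82 and 2.81 per degree of freedom when set against replicates 2 and 3, which gave 0.906 with each other, and for H3K9me3 3.00 and 3.28 against 1.24. Many histone genes of the H2A, H2B, H3 and H4 classes are near-identical copies. How reads that fit several copies were counted is not given in the sources used here, so values of single copies are uncertain.

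Histone gene starts stood high in H3K27ac and low in H3K9me3 against all regions, as did promoters of embryonic stem cell genes. In the separate lines the 17 histone-start members had a median H3K27ac level of 5.61 CPM per kb, against 2.91 over all regions. In the repeated libraries the 36 histone-start members had a median of 20.1 CPM per kb, against 1.86 over all regions. For H3K9me3 their medians were 1.02 and 1.51 CPM per kb, against 3.3 and 4.21 over all regions. In the same order of series, embryonic stem cell promoters had medians of 6.37 and 22.9 for H3K27ac and 1.03 and 2.13 for H3K9me3. Lineage gene promoters had 3.07 and 1.25 for H3K27ac and 2.57 and 5.8 for H3K9me3. The 30 members with a tRNA gene had H3K9me3 medians of 1.94 and 1.17. These levels are thus not particular to the histone gene starts. The highest region of H2A, H2B and H3 in the separate lines was chr13:23574296-23578457, at 8.14 ± 0.545 CPM per kb (SD, n = 6 lines). It lies over the starts of Hist1h2ad and Hist1h3d. The start of Hist1h2bf is within 500 bp of it but lies in the neighbouring member. The highest of H1 and H4 was chr13:23735679-23766984, which runs from Hist1h1c to Hist1h1a over 9 gene starts, at 7.78 ± 0.457 CPM per kb. The lowest of H1 and H4 was chr13:23694237-23700204, at 4.63 ± 0.73 CPM per kb. It holds Hist1h4c and Hist1h1t, the testis form of histone H1. The lowest of H2A and H2B was chr13:21833664-21838454, at 4.88 ± 0.623 CPM per kb. It holds Hist1h2br, while the start of Hist1h2ap lies outside it, within 500 bp. The lowest of H3 was chr13:21774896-21794113, over Hist1h1b, Hist1h3i, Hist1h2an and Hist1h2bp, at 6.49 ± 0.647 CPM per kb. The ranges over the 6 lines were 7.29 to 8.87 for the highest region and 3.6 to 5.49 for the lowest. Both regions were picked by these same values, so nothing is concluded from the gap between them.

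The comparison of the 3 D2 with the 3 B6 lines asked how the marks at the cluster differ between the strains. H3K27ac was higher in D2 over much of the cluster, by small steps at the histone genes. Of 65 members, 37 were higher and 3 lower in D2 (edgeR quasi-likelihood test, Benjamini-Hochberg adjusted over all tested regions), while 49.3% of all tested regions were called, 24.3% as higher and 25% as lower. At the histone gene starts 13 of 17 members were higher in D2 and 0 lower, with a median log2 fold change of 0.24, against -0.01 over all regions and -0.06 over the rest of chromosome 13, from which 60 to 75 Mb were left out. Summed over the 17 histone-start members, the B6 lines gave 1443, 1230 and 1331 CPM and the D2 lines 1494, 1523 and 1492. All 3 D2 sums lay above all 3 B6 sums, and the D2 lines lay closer together. Promoter regions of lineage genes, which mark differentiating cells, also summed higher in D2 without overlap, at 88.2 to 95.5 CPM in B6 and 96 to 98.3 in D2, with 4 of 10 called higher and 1 lower. Those of embryonic stem cell genes overlapped, at 2860 to 3210 and 2950 to 3070 CPM, with 3 of 19 called higher and 3 lower. Neither list had a region at 0 in either strain, and their part in the cluster's difference was not tested. By class, the called share was 3 of 5 H1, 10 of 14 H2A, 11 of 15 H2B, 2 of 6 H3 and 7 of 10 H4 regions, each higher in D2, with many regions counted under several classes. Of 19 members with a tRNA gene, 5 were higher and 2 lower in D2, with a median of 0.04. The difference between these members and the histone gene starts was not tested.

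**Figure D1:**
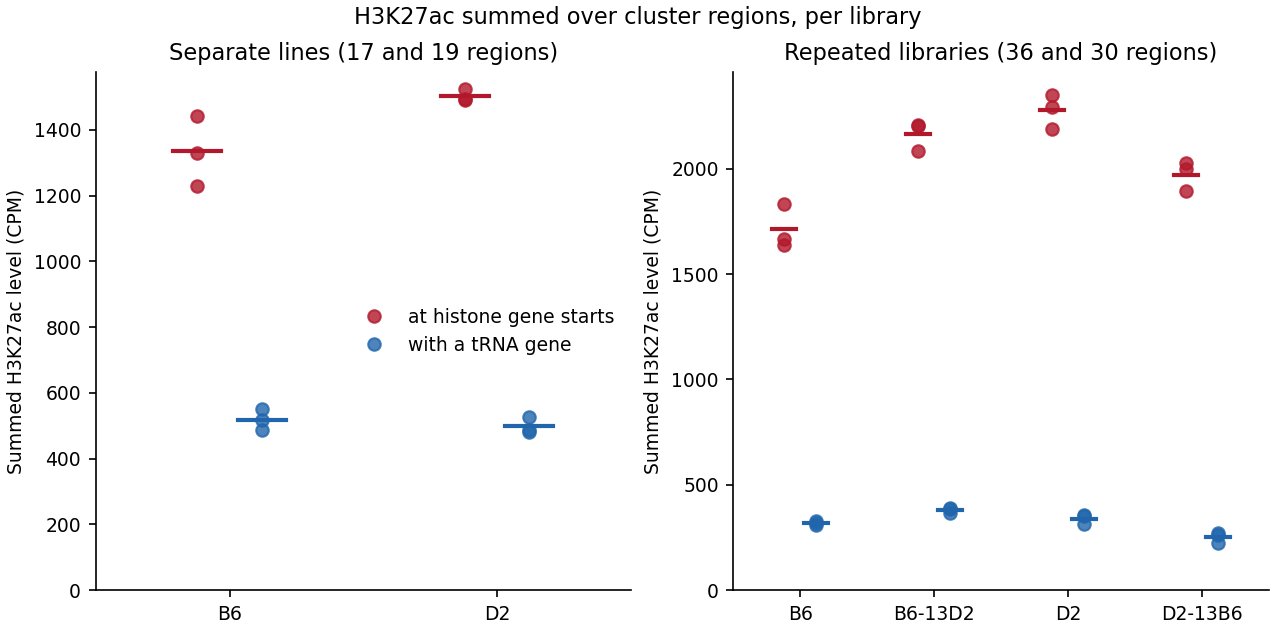
H3K27ac level in CPM, summed over the cluster regions at histone gene starts (red) and over those with a tRNA gene (blue), with 1 point per library and the mean as a bar. The left panel shows the separate lines, where D2 sums at histone gene starts (1492 to 1523) lie above those of B6 (1230 to 1443), and the right panel the repeated libraries of 4 lines.

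Among the histone genes the region of Hist1h1e, a linker histone gene, and Hist1h2be differed most. Of Hist1h2be it holds the annotated start and an untranslated part, while the coding exon lies in another member. At chr13:23618828-23623765 the B6 lines measured 20.9, 19.1 and 19.7 CPM and the D2 lines 32.2, 30.8 and 31.5. The groups did not overlap, and the log2 fold change was 0.66 ± 0.08 (SE, adjusted p = 1.41e-09, edgeR). At the region of Hist1h1t and Hist1h4c the values were 26, 21.5 and 24.4 CPM in B6 and 29.7, 31.3 and 32.8 in D2, a log2 fold change of 0.38 ± 0.08 (adjusted p = 0.000129, edgeR). By contrast, the widest histone region, from Hist1h1c to Hist1h1a, measured 268, 224 and 240 CPM in B6 and 244, 246 and 240 in D2. The groups overlapped there, and the log2 fold change was -0.002 ± 0.06 (adjusted p = 0.977, edgeR). The region of Hist1h2ad and Hist1h3d, beside Hist1h2bf, did not pass the test either. It measured 34.8, 30.3 and 32.8 CPM in B6 and 36.9, 35.2 and 33.2 in D2 (log2 fold change 0.10 ± 0.08, adjusted p = 0.277, edgeR).

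The largest differences in the cluster went the other way and lay beside the histone genes, between Btn2a2, a butyrophilin gene, and Hist1h4h. At the intergenic region chr13:23509928-23511299, 19.8 kb from Hist1h4h, the B6 lines measured 8.21, 6.42 and 6.71 CPM and the D2 lines 0, 0.0551 and 0.0576. This was 352 counts in B6 against 2 in D2, a ratio of 183 with a 95% interval of 50.2 to 1510 that covers counting error only. At chr13:23504053-23509587, which holds a tRNA-Trp gene, the B6 lines measured 38.3, 33.2 and 34.4 CPM and the D2 lines 0.193, 0.551 and 0.518 (log2 fold change -6.33 ± 0.17, adjusted p = 4.79e-36, edgeR). At the next region, chr13:23511403-23521858, which holds tRNA-Gly, tRNA-Met, tRNA-Ser and tRNA-Gln genes, the B6 lines measured 84.6, 72.8 and 74.5 CPM and the D2 lines 22.8, 25.6 and 24.1. Its log2 fold change was -1.68 ± 0.08 (adjusted p = 7.05e-26, edgeR). These 3 regions were the only members called lower in D2 in the separate lines.

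Upward of these, the members with the largest rise in D2 lay outside the histone gene starts. The region of the untranslated part of Trim38, a tripartite-motif ubiquitin ligase gene (chr13:23775929-23780141), measured 8.04, 8.31 and 7.09 CPM in B6 and 14.1, 17.6 and 20.4 in D2. Its log2 fold change was 1.16 ± 0.11 (adjusted p = 1.65e-12, edgeR). The intergenic region chr13:21818629-21820998, 6.5 kb from Hist1h4m, measured 4.39, 4.53 and 5.06 CPM in B6 and 6.74, 10.9 and 10 in D2 (log2 fold change 1.00 ± 0.14, adjusted p = 8.07e-08, edgeR). The intergenic region chr13:21844018-21847967, 6.5 kb from Hist1h2br, measured 7.02, 6.73 and 7.78 CPM in B6 and 10.1, 14.3 and 12.6 in D2 (log2 fold change 0.79 ± 0.12, adjusted p = 2.99e-07, edgeR). At each of these 3 regions every D2 line lay above every B6 line.

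**Figure D2:**
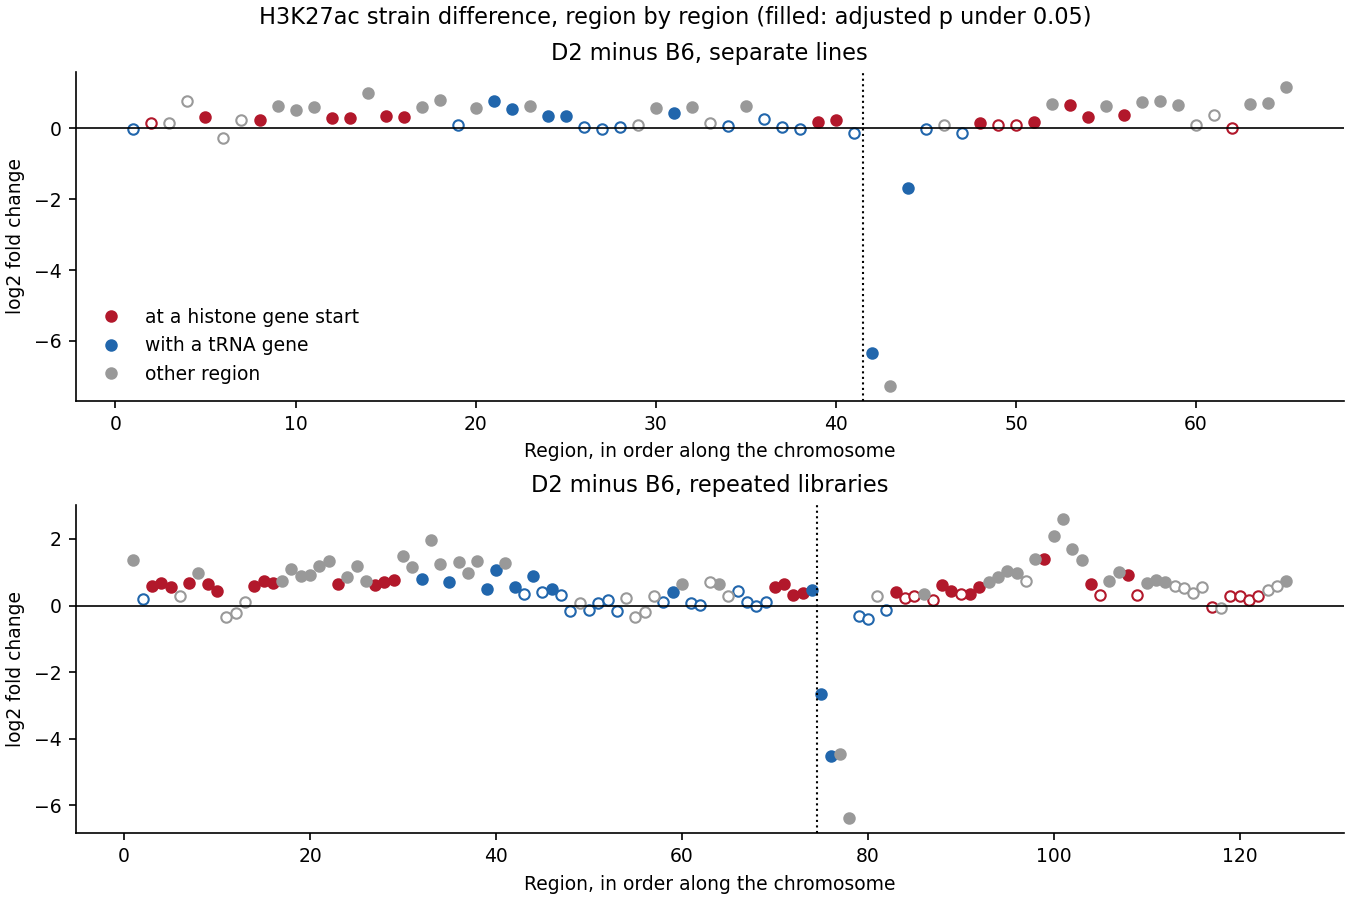
H3K27ac log2 fold change of D2 minus B6 for each member region in its order along chromosome 13, in the separate lines (top) and the repeated libraries (bottom), with filled points for an adjusted p under 0.05 and a dotted line between the 2 spans. Most points lie above 0, and the few far below 0, down to -7.26 and -6.38, are the neighbouring regions beside Hist1h4h.

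The parental lines in the repeated libraries gave the same comparison with another antibody and 1 line per strain. Of 125 tested members, 71 were higher and 4 lower in D2, while 28.1% of all tested regions were called and 14.7% were higher. The 36 histone-start members held 25 that were higher in D2 and 0 lower, with a median log2 fold change of 0.55. By class, 14 of 16 H2A and 13 of 16 H2B regions were higher in D2, with 3 of 6 H1, 5 of 11 H3 and 7 of 11 H4 regions. The largest rises were at 2 low intergenic regions 8 and 7.5 kb from Hist1h1e, with log2 fold changes of 2.59 ± 0.51 and 2.1 ± 0.44. At the first of them B6 libraries measured 0.631, 0.0993 and 0.111 CPM and D2 libraries 2.55, 1.9 and 0.327, which is 8 against 45 counts and overlaps. Without B6 replicate 1 that log2 fold change was 3.88, and over the libraries left out in turn it was 2.03 to 3.88. Of the 126 members of the shared list, 111 overlapped a member of the wider list. At 56 of these both series called a difference, and the direction was the same at all 56, higher in D2 at 52 and lower at 4. B6 line 5-1 and D2 line 5-5 were used in both series, so these are not separate sets of lines. The same count over all regions of both lists was not made, and nothing particular to the cluster can be read from it. Promoter regions of fibroblast genes moved in the same direction in these libraries: 6 of 8 were higher in D2, and their summed level was 16.6 to 18 CPM in B6, 27.7 to 30.2 in B6-13D2, 38.3 to 45.3 in D2 and 18.2 to 37.8 in D2-13B6. None of the 8 had 0 counts in any genotype, and Col3a1, Pdgfra, Lum, Postn and Fbn1 had no promoter region in the list. In the separate lines that sum was 9.69 to 12 CPM in B6 and 8.06 to 9.43 in D2. The other marker lists also summed higher in the D2 than in the B6 repeated libraries without overlap. Embryonic stem cell promoters gave 1360 to 1490 CPM in B6 and 1590 to 1670 in D2, with 6 of 18 tested called higher and 1 lower. Lineage gene promoters gave 32.6 to 39.1 and 42 to 50.4 CPM, with 2 of 14 called higher and 0 lower. The part of these signals in the histone cluster results was not tested, and in these bulk samples fewer cells with a mark and less of the mark per cell cannot be told apart.

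Beside Hist1h4h the H3K27ac levels of the congenic lines followed the line's background strain. At chr13:23513243-23515086, 16 kb from Hist1h4h, B6 libraries measured 57.3, 58.3 and 62.8 CPM and B6-13D2 libraries 60.7, 60.3 and 63.7. D2 libraries measured 0.612, 0.671 and 0.762 CPM there and D2-13B6 libraries 0.392, 0.424 and 0.101. The log2 fold change of D2 minus B6 was -6.38 ± 0.22 (adjusted p = 5.38e-27, edgeR). The middle of this region is the last sequence printed above. At chr13:23510136-23510883 the B6 libraries measured 12, 14.3 and 13.9 CPM and the D2 libraries 0.408, 0.447 and 0.87 (log2 fold change -4.47 ± 0.27, adjusted p = 7.06e-18, edgeR). The regions with a tRNA-Trp gene (chr13:23505646-23507905) and a tRNA-Arg gene (chr13:23503484-23504346) were lower in D2 by log2 fold changes of -4.53 ± 0.23 and -2.65 ± 0.28. Over the 4 regions together, B6 had 3135 counts and D2 98, a ratio of 31.2 (95% interval 25.5 to 38.6). B6-13D2 had 3543 and D2-13B6 61, a ratio of 53 (41.2 to 69.4). In the H3K9me3 tables the same 4 regions held 26 counts in the B6 lines and 39 in the D2 lines, a ratio of 0.973 (0.569 to 1.64). Of the 39, 29 fell in the tRNA-Trp region, and at chr13:23513243-23515086 alone the counts were 6 in B6 and 2 in D2, a ratio of 4.38 (0.783 to 44.4). In the repeated libraries the 4 regions held 24 H3K9me3 counts in B6 and 4 in D2, a ratio of 3.61 (1.24 to 14.3), and 13 in B6-13D2 and 9 in D2-13B6, a ratio of 1.91 (0.753 to 5.05). The number of D2 reads that could be placed on these B6 reference sequences was not tested.

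**Figure D3:**
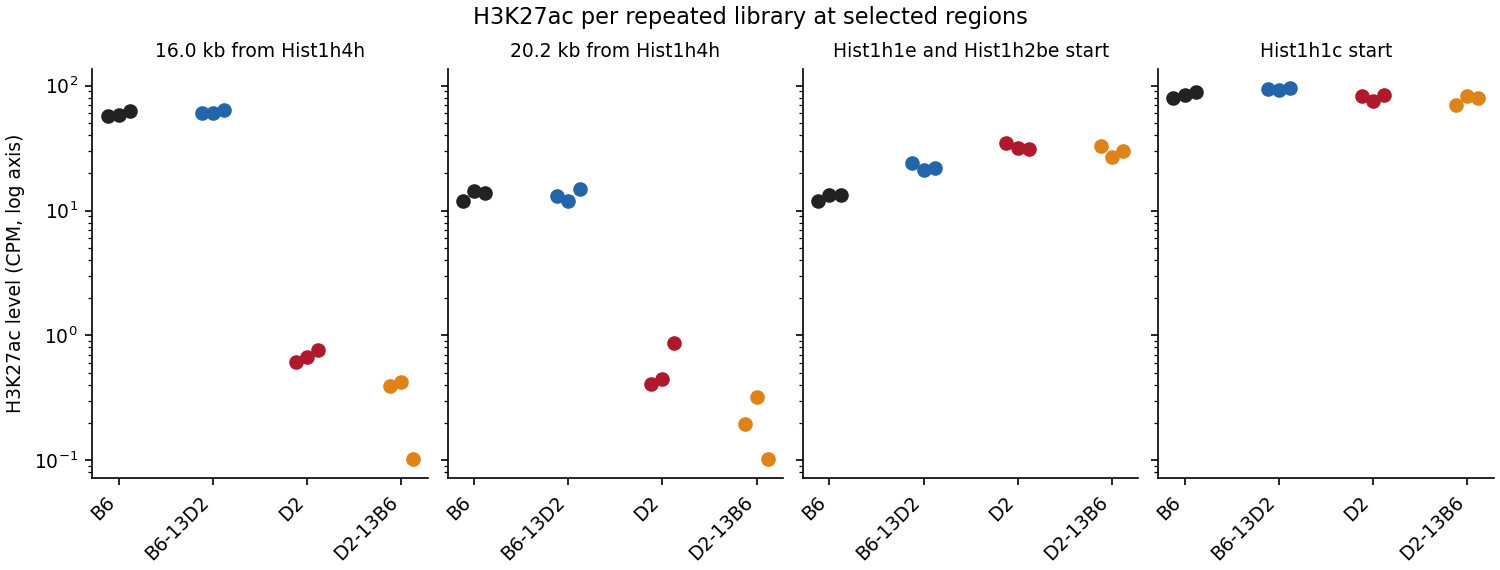
H3K27ac level in CPM on a log axis at 4 regions, with 1 point per repeated library for each of the 4 lines. At the regions 16 and 20.2 kb from Hist1h4h, B6 and B6-13D2 libraries lie far above D2 and D2-13B6 libraries, at the Hist1h1e and Hist1h2be start B6 lies lowest, and at the Hist1h1c start B6, D2 and D2-13B6 overlap while B6-13D2 (92.8 to 96.2) lies slightly above.

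The congenic contrasts asked whether a line with the exchanged piece differs at the cluster from the line with the same background. The contrasts share libraries with the parental comparison, and each compares 1 line with 1 other. With B6 background, 34 of 125 tested members were higher in B6-13D2 than in B6 and 0 lower, while 13% of all tested regions were called and 7.6% were higher. At the histone gene starts 14 of 36 members were higher and 0 lower, with a median log2 fold change of 0.31, against -0.06 over all tested regions and 0.00 over the rest of chromosome 13. The count of 14 was 6 with scaling factors from chromosome 13 or with no filter on low counts, and 30 with every library kept separate. Without B6 replicate 3 it was 8, and without B6-13D2 replicate 2 it was 7. Leaving out a library outside the summed pair leaves 1 sample in that group, which is then assumed to vary like the other groups. Over all members these left-out libraries gave 17 and 20 calls. Calls over all tested regions under these alternatives are not set beside these counts. Summed over the 36 histone-start members, B6 libraries gave 1636, 1665 and 1833 CPM and B6-13D2 libraries 2204, 2083 and 2208. All 3 B6-13D2 sums lay above all 3 B6 sums. Some marker promoter sums were higher without overlap as well. Embryonic stem cell genes gave 1360 to 1490 CPM in B6 and 1610 to 1680 in B6-13D2, and fibroblast genes 16.6 to 18 and 27.7 to 30.2. Of these, 3 of 18 and 2 of 8 tested regions were called higher and 0 lower, and the first count was 1 without B6 replicate 3 and 6 without B6 replicate 2. Lineage gene sums overlapped, at 32.6 to 39.1 and 29.3 to 40.5 CPM. Their part in the cluster's difference was not tested.

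With D2 background, 22 of 125 tested members were higher in D2 than in D2-13B6 and 0 lower, while 6.67% of all tested regions were called and 1.43% were higher. None of these lay at a histone gene start. There, 0 of 36 members passed the edgeR test in either direction, and DESeq2 also called 0. This count depended on the processing: with library totals or a mean of at least 20 counts 18 were called higher in D2, and with every library kept separate 19. Calls over all tested regions under these alternatives are not set beside this or the later counts of this contrast. Before adjustment 12 of the 36 had a p under 0.05 (edgeR), a count that cannot be set against shares of adjusted calls. The median log2 fold change of the 36 members was 0.21, against 0.00 over all tested regions and 0.17 over the rest of chromosome 13. D2 libraries gave 2351, 2190 and 2293 CPM over the 36 members and D2-13B6 libraries 1894, 1996 and 2025, so the 3 D2 sums lay above the 3 D2-13B6 sums. Of the 30 members with a tRNA gene, 7 were higher in D2, and their summed level was 356, 312 and 350 CPM in D2 against 225, 272 and 264 in D2-13B6. Without D2-13B6 replicate 1, which leaves 1 sample in that group, the 7 became 3, and with any other single library left out 6 to 9. DESeq2 called 2 tRNA-gene members, library totals and the mean filter 12, and separate libraries 16. Fibroblast gene promoters also summed higher in D2, at 38.3 to 45.3 CPM against 18.2 to 37.8, while embryonic stem cell promoters summed lower, at 1590 to 1670 against 1690 to 1730, and their part was not tested. The count of 22 was 20 without D2-13B6 replicate 1 and 12 without D2 replicate 2, and DESeq2 called 2 members, while library totals gave 48, the mean filter 49 and separate libraries 59.

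**Figure D4:**
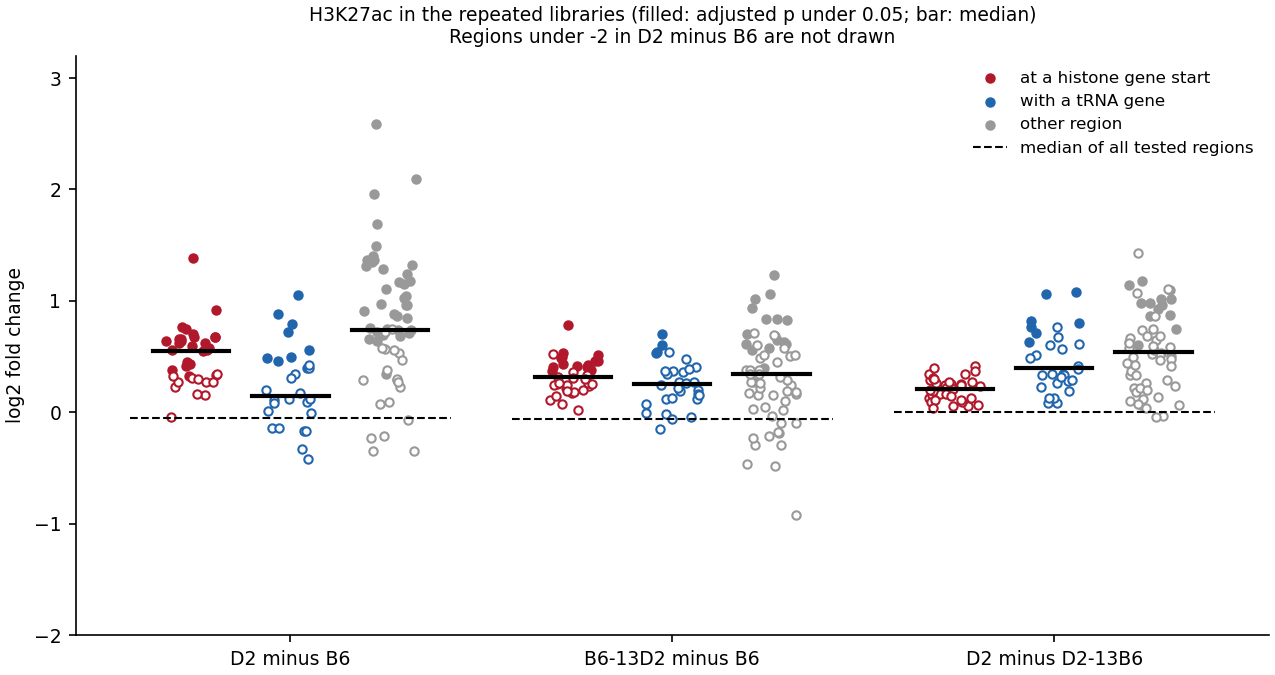
H3K27ac log2 fold changes of the member regions in 3 contrasts of the repeated libraries, by kind of region, with filled points for an adjusted p under 0.05, bars for the median of a kind and dashed lines for the median of all tested regions. Histone gene starts have medians of 0.55, 0.31 and 0.21, and the 4 regions under -2 in D2 minus B6 are not drawn but count in the median.

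The Hist1h1e and Hist1h2be start (chr13:23620561-23622849) was graded over the 4 lines. B6 libraries measured 12, 13.4 and 13.4 CPM, B6-13D2 libraries 24, 21.3 and 22.1, D2 libraries 34.8, 31.9 and 31.2, and D2-13B6 libraries 33, 26.9 and 29.9. B6-13D2 lay between B6 and D2 without overlap, while D2 and D2-13B6 overlapped. The log2 fold changes were 1.39 ± 0.14 for D2 minus B6 (adjusted p = 1.47e-10), 0.78 ± 0.15 for B6-13D2 minus B6 (adjusted p = 0.000135) and 0.07 ± 0.13 for D2 minus D2-13B6 (adjusted p = 0.871), all by edgeR. The Hist1h4k and Hist1h3i starts, an H4 and an H3 gene, rose in B6-13D2 by 0.53 ± 0.13 and 0.51 ± 0.13 (adjusted p = 0.0035 and 0.00687, edgeR). Hist1h4k measured 30.5, 25.3 and 31.1 CPM in B6 and 44.2, 41.5 and 41.7 in B6-13D2. Hist1h3i measured 23.5, 23.7 and 26.6 CPM in B6 and 35.8, 33 and 39 in B6-13D2. Both were picked for naming after their values were seen. At the start of Hist1h1c, a linker histone gene, B6 libraries measured 80, 84.1 and 88.9 CPM, B6-13D2 94.4, 92.8 and 96.2, D2 82.3, 75.7 and 84.1, and D2-13B6 70.5, 82.8 and 80.2. B6-13D2 libraries were slightly above the rest, but none of the 3 contrasts was called (edgeR). The shared-list region chr13:23571645-23574583 lies over the starts of Hist1h2bf and Hist1h2ad and within 500 bp of those of Hist1h2ae and Hist1h2bg. It was higher in D2 than in B6 (log2 fold change 0.43 ± 0.13, adjusted p = 0.00849, edgeR) and was called in neither congenic contrast.

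The 6 called members with the largest log2 fold changes between B6-13D2 and B6 lay outside histone gene starts. At chr13:21880672-21881434, 43.1 kb from Hist1h2br, B6 libraries measured 2.21, 2.58 and 2.11 CPM and B6-13D2 libraries 5.24, 5.59 and 5.13 (log2 fold change 1.23 ± 0.26, adjusted p = 0.000592, edgeR). At chr13:21790364-21791344, 1.2 kb from Hist1h2bp, B6 libraries measured 4.63, 7.05 and 6.32 CPM and B6-13D2 libraries 12.2, 12.5 and 13 (log2 fold change 1.06 ± 0.18, adjusted p = 2.47e-05, edgeR). The groups did not overlap at either region. The other 4 of the 6 largest were chr13:23601068-23601425 in an intron of Hist1h2be, 3.3 kb from Hist1h2bp, 5.4 kb from Hist1h2bq and 7.1 kb from the iron-uptake regulator gene Hfe, with log2 fold changes of 1.01, 0.94, 0.83 and 0.83. DESeq2 did not call the Hist1h2be intron and the regions near Hist1h2bq and Hfe (adjusted p = 0.13, 0.123 and 0.0788). The region 3.3 kb from Hist1h2bp was not called without B6 replicate 3 (log2 fold change 0.79, adjusted p = 0.0896, edgeR).

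Between D2 and D2-13B6 the largest called changes also lay outside histone gene starts. At chr13:21853687-21854238, 16.2 kb from Hist1h2br, D2 libraries measured 6.43, 3.36 and 6.2 CPM and D2-13B6 libraries 2.25, 2.02 and 2.43 (log2 fold change 1.18 ± 0.26, adjusted p = 0.00188, edgeR). At chr13:21924062-21925616, which holds a tRNA-Ser gene, D2 libraries measured 7.85, 8.5 and 7.84 CPM and D2-13B6 libraries 3.53, 3.39 and 4.56 (log2 fold change 1.06 ± 0.2, adjusted p = 0.000143, edgeR). Every D2 library lay above every D2-13B6 library at both. The others were an exon of Gm22452, a region 8.4 kb from Hist1h2br, a region with a tRNA-Leu gene 10.1 kb from Hist1h2br and a region 21.2 kb from Hist1h2ac, with log2 fold changes of 1.14, 1.1, 1.08 and 1.02. DESeq2 called the tRNA-Ser region (adjusted p = 0.0068) and none of the other 5, whose adjusted p was 0.107 to 0.417. The congenic contrasts differed from each other, by the interaction in the same fit, at 4 of 125 members, 3 higher and 1 lower, while 5.3% of all tested regions were called, 3.93% as higher and 1.37% as lower. With library totals as the scale that split was 3 higher and 7 lower.

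The 5 members with the most H3K9me3 per kb in the separate lines lay away from the histone gene starts, and 50.6% to 96.2% of their bases were soft-masked repeats, against a median of 17.3% over the members. The highest member in the separate lines, chr13:21864601-21866780, 27.1 kb from Hist1h2br, lies 89.3% in soft-masked repeat sequence. It measured 76.2, 66.8 and 55.4 CPM in the B6 lines and 65.2, 67.5 and 63 in the D2 lines, and the groups overlapped. At 30.1 CPM per kb it stood above the next members, chr13:21900750-21902766 at 29.3, the Hist1h2be intron chr13:23591708-23592586 at 25.1, chr13:21761184-21762200 at 20.7 and another Hist1h2be intron region, chr13:23601722-23602267, at 17.5. In the repeated libraries 4 of these 5 were again among the top 5. Both strains also carried H3K27ac at chr13:21900750-21902766, at 24.2, 22.3 and 24.9 CPM in the repeated libraries of B6 and 58.4, 54.9 and 56.4 in those of D2. The member highest in H3K9me3 in the repeated libraries, 11.4 kb from Hist1h2bn, was narrow, lay entirely in masked sequence and rested on 16 to 26 counts per genotype.

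The members with a called H3K9me3 difference between the strains were lower in D2. Their share of lower calls was near that over all tested regions, and none was called higher. Only 25 of 126 members had enough counts to be tested in the separate lines, and 5 were lower and 0 higher in D2. Over all tested regions 34.6% were called, 17.3% as higher and 17.4% as lower. The Trim38 region chr13:23778115-23779445 changed most. The B6 lines measured 17.6, 9.35 and 21.4 CPM there and the D2 lines 5.05, 4.6 and 4.63, without overlap (log2 fold change -1.76 ± 0.32, adjusted p = 2.01e-05, edgeR). This is the part of Trim38 where H3K27ac was higher in D2. At chr13:21759452-21761096, 4.9 kb from Hist1h2bn, the B6 lines measured 28.6, 17.4 and 22.1 CPM and the D2 lines 12.6, 8.81 and 8.34 (log2 fold change -1.21 ± 0.25, adjusted p = 0.000153, edgeR). The others were chr13:21968763-21970872, 8 kb from Zfp184, chr13:21808467-21812523, over Hist1h2bq, Hist1h2ao and Hist1h4m, and chr13:21761184-21762200, with log2 fold changes of -1.005, -0.91 and -0.63. The call near Zfp184 was lost with DESeq2 (adjusted p = 0.199), with no filter (0.0984) and without B6 replicate 1 (0.0653). At Hist1h2bq, Hist1h2ao and Hist1h4m the B6 lines measured 7.16, 6.68 and 17.6 CPM and the D2 lines 4.55, 7.28 and 4.63, so the groups overlapped. Without B6 replicate 3 that log2 fold change was -0.35 (adjusted p = 0.576, edgeR). Without D2 replicate 3 only 3 of the members were called.

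**Figure D5:**
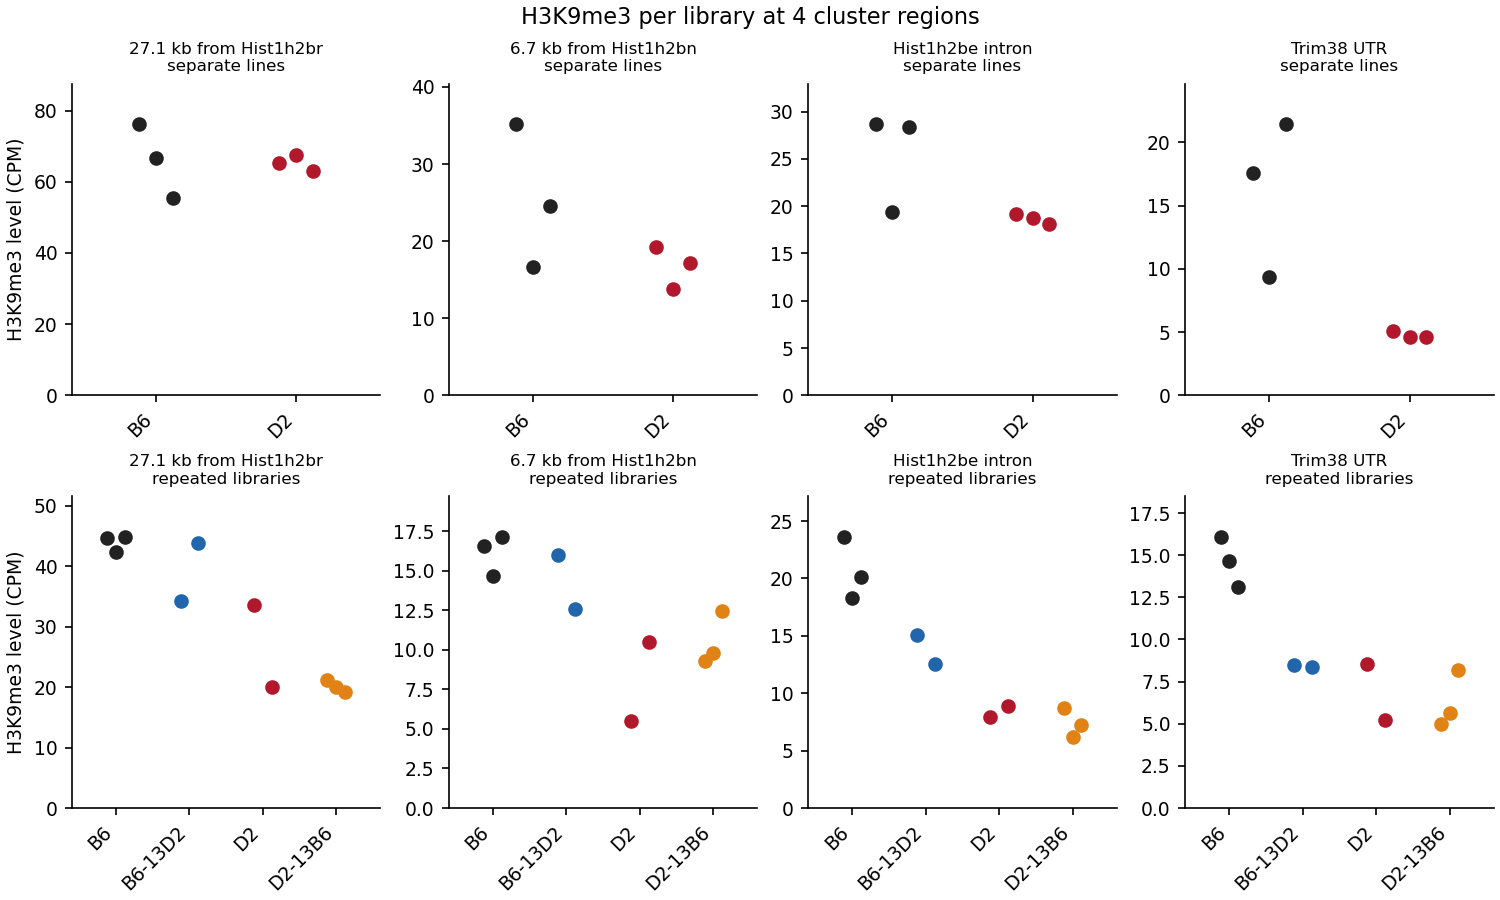
H3K9me3 level in CPM at 4 cluster regions, with 1 point per library in the separate lines (top) and the repeated libraries (bottom), each panel on its own axis from 0. The Trim38 region is higher in B6 than in D2 without overlap in both series, while the region 27.1 kb from Hist1h2br overlaps between strains in the separate lines.

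In the repeated libraries 53 members were tested for H3K9me3. Between the parental lines 5 were lower and 0 higher in D2, while 11.4% of all tested regions were called, 4.42% as higher and 6.99% as lower. Of the 22 members tested in both series, 2 were called in both, the Trim38 region and chr13:21761184-21762200. D2 has 2 libraries here, so without either of them the D2 group is 1 sample, assumed to vary like the other groups. At chr13:21761184-21762200 in the separate lines the log2 fold change was -0.63, and -0.35 without B6 replicate 1 (adjusted p = 0.321, edgeR). In the repeated libraries it was -0.98, and -0.67 without D2 replicate 1 (adjusted p = 0.377, edgeR), while without D2 replicate 2 it was -1.55. DESeq2 called it in neither series (adjusted p = 0.286 and 0.13). At the Trim38 region B6 libraries measured 16.1, 14.7 and 13.1 CPM, B6-13D2 8.46 and 8.4, D2 8.56 and 5.25, and D2-13B6 4.97, 5.66 and 8.16 (D2 minus B6: log2 fold change -1.1 ± 0.34, adjusted p = 0.0182, edgeR). Without D2 replicate 2 that log2 fold change was -0.78 (adjusted p = 0.395, edgeR), and DESeq2 did not call it (adjusted p = 0.14). The B6-13D2 libraries lay below all B6 libraries there, but that contrast was not called (log2 fold change -0.79 ± 0.31, adjusted p = 0.281, edgeR). At the Hist1h2be intron B6 libraries measured 23.6, 18.3 and 20.2 CPM, B6-13D2 15 and 12.6, D2 7.95 and 8.93, and D2-13B6 8.7, 6.18 and 7.2 (D2 minus B6: log2 fold change -1.28 ± 0.3, adjusted p = 0.000962, edgeR). The remaining called members were chr13:21820099-21820961, 8 kb from Hist1h4m, and chr13:21864601-21866780, with log2 fold changes of -1.38 ± 0.47 and -0.73 ± 0.22. Without D2 replicate 2 the second was -0.40 (adjusted p = 0.531, edgeR), and the first was not called without either D2 replicate (adjusted p = 0.226 and 0.189, edgeR). The count of 5 was 2 without B6 replicate 1, 3 without D2 replicate 1 and 2 without D2 replicate 2. DESeq2 called 1. In the congenic contrasts edgeR and DESeq2 called 0 of the members in either background. By edgeR 1.68% and 2.17% of all tested regions were called. For B6 background 1.23% were higher and 0.451% lower, and for D2 background 1.74% were higher and 0.428% lower. Before adjustment, 3 members with B6 background and 8 with D2 background had a p under 0.05, a count that cannot be set against those shares. The interaction called 0 members as well, with 0.364% of all tested regions called, 0.0737% as higher and 0.29% as lower.

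Histone genes and regulators outside the cluster gave a frame for the H3K27ac results. Of 7 regions at histone gene starts on other chromosomes, 5 were higher in D2 lines and 0 lower, at a median log2 fold change of 0.31, while 49.3% of all tested regions were called, 24.3% as higher and 25% as lower. The largest was the region of Hist3h2a and Hist3h2bb-ps, at 20.1, 19.5 and 18.1 CPM in B6 and 27.9, 24.7 and 30.8 in D2 (log2 fold change 0.53 ± 0.09, adjusted p = 1.41e-06, edgeR). Of 13 regions of replication-independent histone genes, whose products are deposited outside S phase, 7 were higher and 0 lower, and 4 were higher without B6 replicate 1 or without D2 replicate 3. Of 22 regions of factors in histone gene transcription and mRNA processing, 9 were higher and 1 lower. The called share was near the 49.3% over all regions, but the split was not near the 24.3% higher and 25% lower. Among the called were the pre-mRNA cleavage factor gene Cpsf2 (0.83 ± 0.07, adjusted p = 1.91e-15, edgeR) and Gon4l (-0.93 ± 0.09, adjusted p = 6.73e-13, edgeR). In the repeated libraries all 9 regions of histone genes elsewhere were higher in D2 than in B6, with a median of 0.58, while 14.7% of all tested regions were higher. Between B6-13D2 and B6 edgeR called 0 of these 9, while 13% of all tested regions were called, 7.6% as higher and 5.4% as lower. Their median was 0.17, and DESeq2 called 0. Before adjustment 2 had a p under 0.05 (edgeR), a count that cannot be set against those shares. Whether the cluster's histone genes differ from those elsewhere in this contrast was not tested.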

How the data were processed

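H3K27ac and H3K9me3 ChIP-seq counts of 34 libraries in 12 groups were used, from 4 tables. The values are counts of reads per region, as deposited by the authors, with duplicates removed per the file headers. The submitters' processing notes name mm10, Trimmomatic 0.39, HISAT2 2.2.1, MACS 1.4.2, bedtools 2.9.2 and edgeR, without roles, and how the region lists were made is not given in the sources used here. In all, 2 columns matched no sample and were not used. The members were set by position, and the spans and gene lists were chosen with earlier results of these data known.

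Each table was fitted whole with edgeR 4.0.16 (R 4.3.3): filterByExpr (minimum count 10, minimum total 15), TMM factors, the quasi-likelihood test and Benjamini-Hochberg adjustment, with calls at an adjusted p under 0.05. The code was tested on simulated data. CPM are relative to a library's total count times its TMM factor. In the H3K27ac repeated libraries, pairs with a chi-square per degree of freedom of 0.906 to 0.977 were summed for the tests, while CPM are shown for each library. Repeated libraries are technical, so their p-values measure the spread between libraries of 1 line, not between lines. A gene start was within 500 bp of a region. Regions were named as the highest and lowest H3K27ac level of each histone class, the top divergent pair, up to 6 called members with the largest log2 fold change per contrast, up to 5 members highest in H3K9me3 per table, and up to 2 called regions per outside list and contrast. Alternatives were DESeq2 1.42.0, other scalings and filters, unsummed libraries, a replicate block and leaving out each library. Intervals of count ratios are exact binomial, at 95%.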

Additional observations from a re-analysis of the deposited data

Results flagged for a closer look

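The H3K27ac difference of B6-13D2 minus B6 was not the same as that of D2 minus D2-13B6 at 4 members, by the interaction in the edgeR fit (n = 2 samples per genotype after summing). This was 4 of 125 tested members, or 3.2%, while 5.3% of all tested regions were called, so the members' share lay below the general one. Leaving out B6 replicate 3, B6-13D2 replicate 2, D2 replicate 2 or D2-13B6 replicate 1 leaves 1 sample in that genotype, assumed to vary like the others.

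At the Hist1h1e and Hist1h2be start the interaction was 0.713 ± 0.197 on the log2 scale (adjusted p = 0.0222, edgeR). All 3 B6-13D2 libraries lay above all 3 B6 libraries, while D2 and D2-13B6 overlapped. It was not called without B6 replicate 3 (adjusted p = 0.0635) or without D2 replicate 2 (0.144), nor with no filter (0.0536). At chr13:21790364-21791344, 1.2 kb from Hist1h2bp, it was 0.992 ± 0.25 (adjusted p = 0.0108, edgeR), with D2 libraries at 10.2, 8.73 and 10.3 CPM and D2-13B6 libraries at 10.6, 8.06 and 7.8. Without D2 replicate 2 the adjusted p was 0.0904.

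At chr13:22049576-22052012, which holds a tRNA-Ser gene 5.9 kb from Hist1h2bj, the interaction was 0.619 ± 0.19 (adjusted p = 0.0444, edgeR). B6 libraries measured 22.6, 23.4 and 24.8 CPM, B6-13D2 38.2, 36.4 and 42.5, D2 31.1, 31.3 and 31.9, and D2-13B6 27.1, 32.7 and 29.4. That call was lost with DESeq2 (adjusted p = 0.0528), with no filter (0.102) and without B6 replicate 3 (0.0926), B6-13D2 replicate 2 (0.0721), B6-13D2 replicate 3 (0.0536) or D2 replicate 2 (0.21). At the Gm22452 exon, chr13:23662385-23663067, the interaction was -1.43 ± 0.448 (adjusted p = 0.0489, edgeR). B6 libraries measured 1.89, 1.69 and 1.88 CPM, B6-13D2 2, 0.746 and 1.8, D2 4.28, 5.37 and 3.59, and D2-13B6 1.37, 2.33 and 2.43. That call was lost with RLE size factors (0.0574), chromosome 13 factors (0.0774) and no filter (0.0651), and when any of 8 libraries was left out, with adjusted p from 0.0513 to 0.286.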

How the results depend on the processing

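The members' H3K27ac counts of D2 against B6 moved by less than 1.5 times under every alternative run. They were 35 to 44 members and 9 to 15 histone-start members in the separate lines, and 56 to 88 and 21 to 33 in the repeated libraries. For B6-13D2 minus B6, the 34 members became 22 with DESeq2, with TMM factors from chromosome 13 or with no filter, and 61 with every library separate. The 14 histone starts became 6 with chromosome 13 factors or no filter, and 30 with every library separate. Leaving out 1 library gave 17 to 36 members and 7 to 17 histone starts. For D2 minus D2-13B6, the 22 members became 2 with DESeq2, 14 with chromosome 13 factors, 48 with library totals, 49 with a mean of at least 20 counts and 59 with every library separate. The 0 histone starts became 18, 18 and 19 in the last 3 of these. Leaving out 1 library gave 12 to 28 members and 0 to 3 histone starts. The interaction's 4 members became 2 with DESeq2, 1 with no filter, 8 with the mean filter, 10 with library totals, 17 with every library separate and 0 to 8 with 1 library left out, 8 of them without D2-13B6 replicate 1 and 0 without D2 replicate 2. For H3K9me3, the 5 members of the separate lines became 2 with DESeq2, the mean filter or no filter, 3 with library totals and 3 to 6 with 1 library left out. The 5 of the repeated parental lines became 1 with DESeq2 or the mean filter, 3 with chromosome 13 factors and 2 to 4 with 1 library left out. The H3K9me3 contrast of D2 minus D2-13B6 called 3 with chromosome 13 factors and 0 to 1 with 1 library left out. The cause was not tested. Apart from the library totals given next, calls over all tested regions are not set beside the counts of this section. Nothing particular to the members can be read from these shifts. With library totals the median of all H3K27ac regions moved from -0.05 to -0.20 for D2 minus B6 and from -0.06 to -0.19 for B6-13D2 minus B6, and the split of higher against lower calls from 28245 and 25693 to 22781 and 33050, and from 14595 and 10368 to 10862 and 16635. The members' H3K27ac medians stayed above 0 in these contrasts under each scaling, while H3K9me3 medians of the members in D2 minus B6 changed sign (-0.07 to 0.06 in the repeated libraries with chromosome 13 factors). Samples with the same replicate number shared only that number: their deviations correlated at -0.066 to 0.068 for H3K27ac and -0.057 to 0.163 for H3K9me3. With the replicate number as a block and every library separate, 88 members were called for D2 minus B6, 61 and 31 histone starts for B6-13D2 minus B6, 59 and 19 for D2 minus D2-13B6, and 17 for the interaction. In the separate lines the block gave 41 for H3K27ac and 4 for H3K9me3. H3K9me3 depth left 25 of 126 members testable in the separate lines.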

Other observations

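Outside the cluster, the named regions of the other gene lists gave these values in the separate lines. The H3K27ac region of the replication-independent linker histone gene H1fx measured 9.18, 10.6 and 9.87 CPM in B6 and 16.1, 15.2 and 15.6 in D2 (log2 fold change 0.66 ± 0.10, adjusted p = 3.47e-07, edgeR). That of H3f3b, a replacement histone gene of the H3 class, rose by 0.33 ± 0.07. Lin28a, an RNA-binding protein gene of embryonic stem cells, was lower in D2, at 32.5, 28.1 and 32.2 CPM in B6 and 16.1, 18.1 and 18 in D2. Fgf4, a growth factor gene of the same list, went the other way (log2 fold change 0.48 ± 0.17, adjusted p = 0.0142, edgeR). The list held 6 called regions of 19, 3 higher and 3 lower in D2, while 49.3% of all tested regions were called. Of the 10 regions of lineage genes 5 were called, among them those of the transcription factor genes Mixl1 and Sox1, at 0.83 ± 0.15 and 0.82 ± 0.13. Of the 4 regions of fibroblast genes 1 was called, that of the growth factor receptor gene Pdgfrb, at -0.55 ± 0.16, and 0 were called without B6 replicate 3 or without D2 replicate 3. For H3K9me3, the germline and stem cell gene Dppa3 measured 3.91, 2.67 and 1.26 CPM in B6 and 12.6, 9.2 and 8.8 in D2 (log2 fold change 1.93 ± 0.41, adjusted p = 0.000198, edgeR). D2 lay above B6 without overlap at H1fx and Dppa3, and below it at Lin28a.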
